A study of Rattus norvegicus with 22 samples.

Results

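The calcaneal tendon (CT) of rats killed 14 days after a muscle injury (14D) was compared with the CT of control rats (C) over the 22 target genes of a qRT-PCR panel. The comparison used every rat that the labels place in these groups, 6 in 14D and 5 in C, which is 11 of the 22 rats measured. All were male Wistar rats, 4 months old at the start. In 14D the gastrocnemius muscle, whose tendon is the CT, had been exposed through a skin incision and cryo-lesioned with a frozen iron bar, and C rats had no muscle injury. No skin incision is described for C, so the surgery and the muscle lesion cannot be told apart in this comparison. The sample titles call the tendon itself injured, while the methods describe a lesion of the muscle belly only. Other rats of the series were killed 3 days (3D, 5 rats) or 28 days (28D, 6 rats) after the injury. The methods state 6 animals per group for qRT-PCR, and a sixth C rat was not analysed here.

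The CT joins the gastrocnemius to the heel bone and consists mostly of aligned type I collagen fibrils laid down by tendon fibroblasts. Type III collagen is a thinner fibril component that is known from early tendon repair, and small proteoglycans such as decorin and biglycan bind to fibrils and set their diameter. Matrix metalloproteinases cut matrix proteins, the tissue inhibitors of metalloproteinases (TIMPs) block them, and TGF-β signalling through SMAD proteins drives collagen genes in fibroblasts.

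Each value began as a cycle threshold (Ct), the PCR cycle at which the signal of a gene passes a set level, so a later Ct means less mRNA. Levels were taken relative to RPLP0, a ribosomal protein gene, as RPLP0 Ct minus gene Ct, and are given as log2 expression with the mean of C at 0 for each gene. A log2 difference of 1 is thus a 2-fold difference. None of the 132 values of 14D was blank or equal to the mean of the other 14D animals, while 12 of the 110 values of C were equal to the mean of the other C animals and were left out, 8 of them in C replicate 4 and 4 in C replicate 1. For 12 genes C therefore holds 4 animals, and for the other 10 genes it holds 5. The Ct of the 230 values used had a median of 28.2, and 5 lay above 35, 4 of these in IL-6 and 1 in ADAMTS-4.

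The RPLP0 Ct averaged 27.1 ± 1.15 in 14D (SD, n = 6), where it ran up to 29.3, against 26.9, 26.1, 26.4, 30.6 and 26.2 in C replicates 1 to 5 (27.3 ± 1.91, SD, n = 5). The difference of -0.147 cycles was smaller than the spread in either group (two-sided exact permutation p = 0.848). C replicate 4 stood far above the other C animals, and 14D replicate 3 was the latest of its group. Without C replicate 4 the 14D mean of 27.1 was 0.694 cycles later than a C mean of 26.4 ± 0.369 (SD, n = 4; two-sided exact permutation p = 0.314). Whether the RNA of these animals differed in amount or quality was not tested.

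The defining genes of tendon cells were readily amplified in both groups. TNMD, which encodes the tendon membrane protein tenomodulin, had a Ct of 22.4 to 25.3 in 14D and of 22.4 to 26.1 in C. SCX and MKX, transcription factors of the tendon lineage, lay between 26.7 and 30.9 in 14D and between 26.5 and 32.5 in C. The panel has no defining gene of muscle, fat, blood vessel or blood cells, so the share of such cells was not tested. In a whole tendon, fewer cells of a type and less RNA per cell cannot be told apart.

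None of the 22 genes passed an adjusted p of 0.05 in limma between 14D and C (0% called), with a smallest adjusted p of 0.0940. At an unadjusted p under 0.05, limma called 1 gene (4.55%), COL3A1, and the exact permutation test, two-sided, called 2 (9.09%), COL3A1 and TIMP-1. After adjustment the exact test called none (smallest adjusted exact p = 0.157). With 4 C animals, as in COL3A1 and TIMP-1, no exact p below 0.00476 was possible before adjustment over 132 tests. In no gene did the 14D animals all lie on one side of the C animals. The log2 difference was above 0 in 12 genes and below 0 in 10, its median was 0.09, and 14 genes lay within 0.5 of 0. Only COL3A1, TIMP-1 and VEGF differed by more than 1, each with a lower mean in 14D.

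These differences were measured with wide intervals. The 95% interval of the log2 difference reached 0.71 to either side of the estimate in the best measured gene, 1.11 in the median gene and 2.52 in the widest. It left out a 2-fold difference in both directions for only 2 genes, SMAD-2 and SCX, and a 4-fold difference for 17. For most genes a 2-fold difference between 14D and C was therefore not excluded by these intervals. Their spread was taken over all 4 groups, so the 3D and 28D rats also set their width. With only 14D and C in the model the interval was narrower for all genes but MMP-2 and IGF-1a. That of TIMP-1, the widest, became -2.19 to -0.28, and that of TGF-β1 became -0.50 to 0.86.

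**Figure D1:**
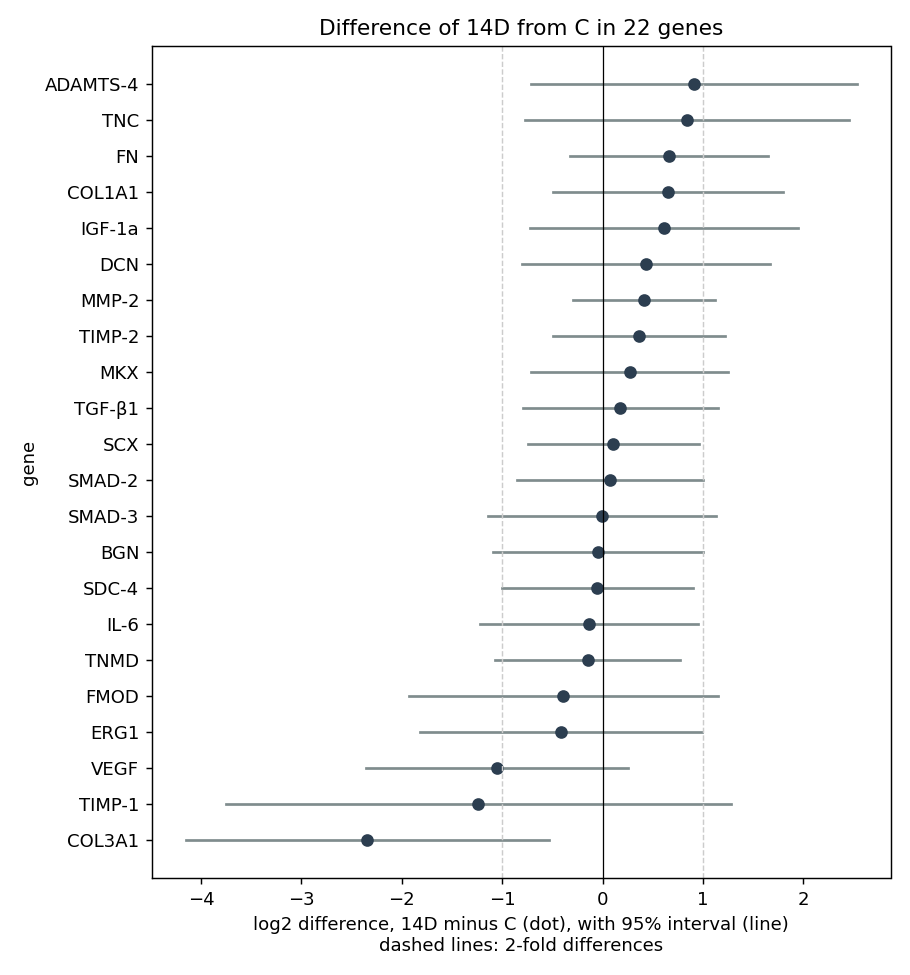
Log2 difference of 14D from C (dot) with its 95% interval (line) for each of the 22 genes, from limma with all 4 groups. Dashed lines mark a 2-fold difference. The interval of COL3A1, from -4.15 to -0.54, is the only one that leaves out 0.

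COL3A1, which encodes the chain of type III collagen, showed the widest gap between the groups. In 14D its log2 expression was -3.88 at the lowest, -2.88 at the median and 0.49 at the highest, against -0.52, -0.70, 0.43 and 0.78 in C replicates 2 to 5. Of the 6 rats of 14D, 5 lay below every C animal, and replicate 3, at 0.49, lay inside the range of C. The mean was 5.08-fold lower in 14D (log2 difference -2.34, SE 0.87, 95% interval -4.15 to -0.54, n = 6 against 4). The unadjusted limma p was 0.0135 and the adjusted p 0.0940, and the two-sided exact permutation p was 0.0381. Without 14D replicate 3 the log2 difference was -2.91 and it passed (adjusted p = 0.0274 from limma). Without C replicate 4, whose RPLP0 Ct was late, it was -2.20 (adjusted p = 0.204 from limma).

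COL1A1, the gene of the α1 chain of type I collagen, did not share the low values of COL3A1. Its log2 expression in 14D ran from -0.15 through a median of 0.71 to 1.44, against -0.60, -0.40, 0.31 and 0.69 in C replicates 1, 2, 3 and 5. In 3 of the 6 rats of 14D the level was above every C animal, and the other 3 overlapped with C. The log2 difference was 0.65 (SE 0.55, 95% interval -0.50 to 1.80), and it was -0.04 with the Ct alone. Relative to RPLP0 the fibrillar collagens as a list thus held 1 gene with a higher and 1 with a lower mean. Their median difference was -0.85 against 0.09 over all 22 genes, with 0 genes called in either set.

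The ratio of COL1A1 to COL3A1 within an animal does not depend on RPLP0, since both genes are read from the same cDNA. It was computed with 7 other ratios, and the log2 ratio was again set to a mean of 0 in C. In 14D it ran from -0.98 through a median of 3.25 to 3.86, against -0.22, 0.66 and -0.44 in C replicates 2, 3 and 5, the C animals with both genes measured. The ratio of 14D replicate 3, the rat with the high COL3A1, was below every C animal, and that of the other 5 rats was above every C animal. The mean ratio was 6.29 times as high in 14D (log2 difference 2.65 with an SE of 1.11, 6 rats against 3). The two-sided exact permutation p was 0.0595, or 0.159 after Benjamini-Hochberg adjustment over the 8 ratios, where 6 animals against 3 allow no p below 0.0119.

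**Figure D2:**
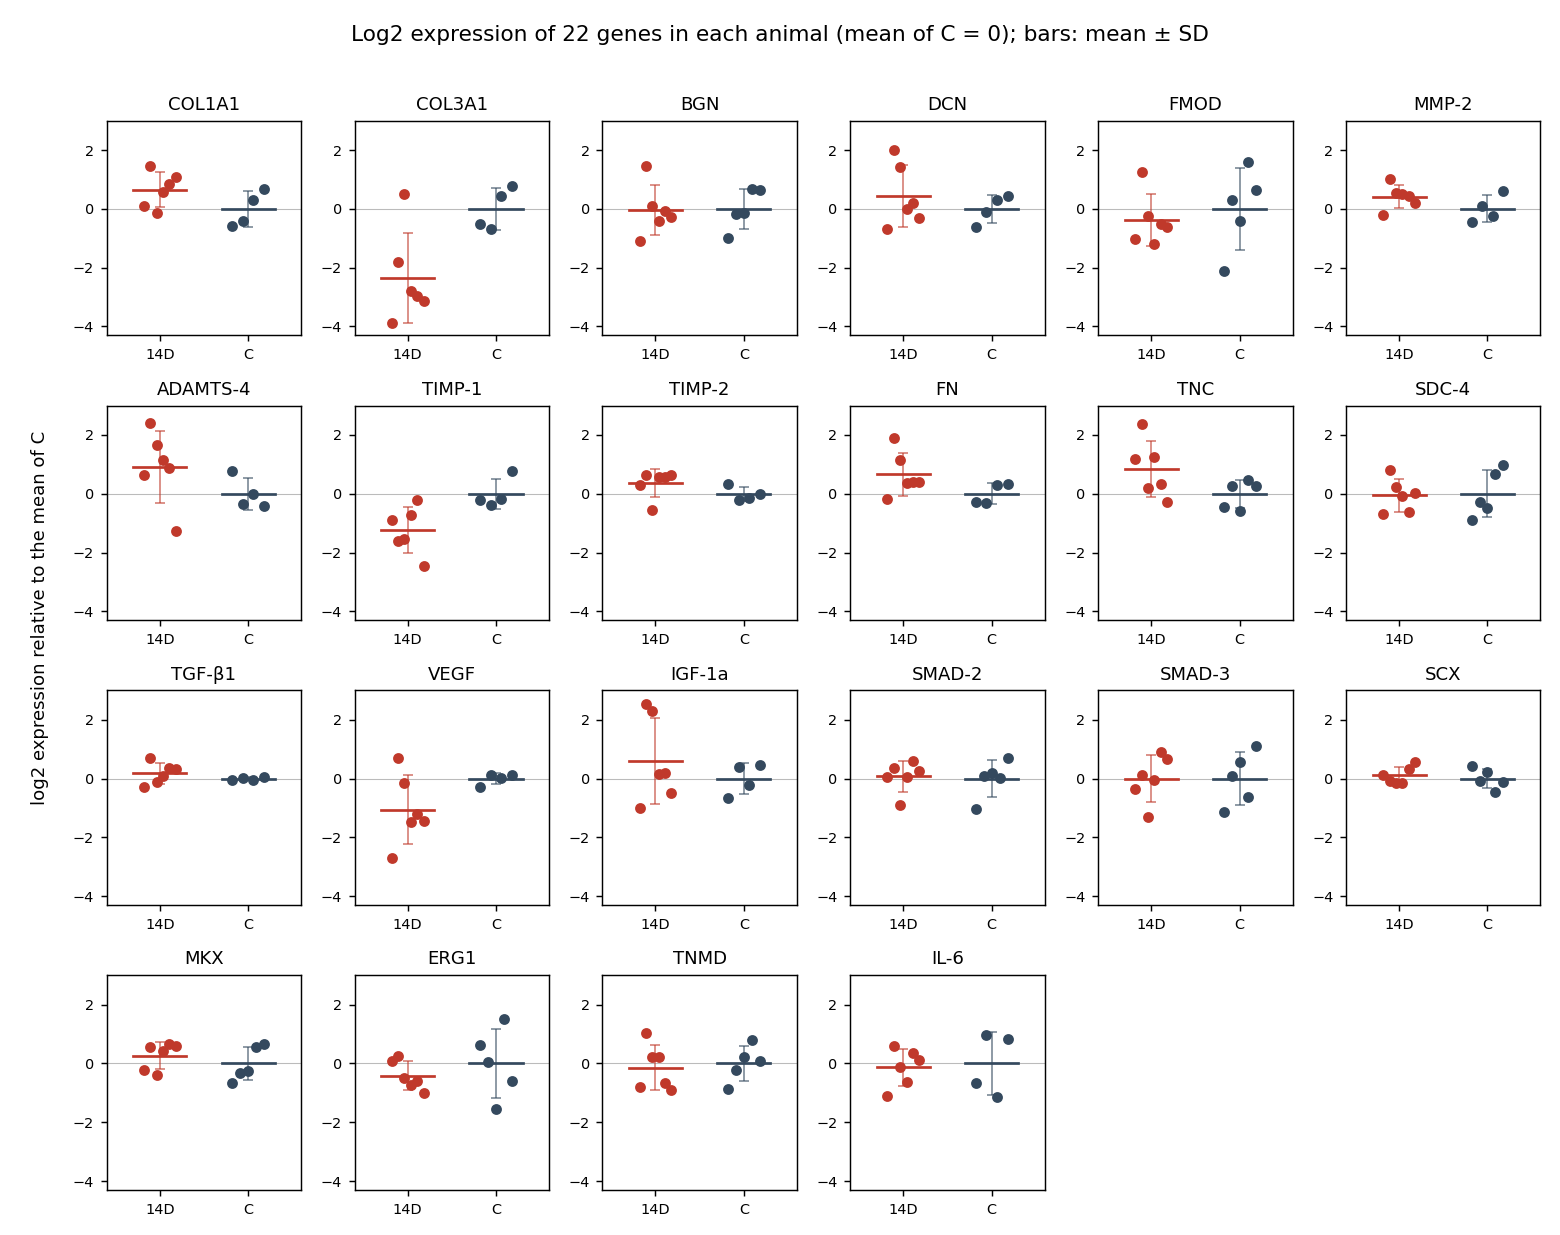
Log2 expression relative to RPLP0 of each gene in each animal (dot), with the mean and SD of 14D (red, left) and C (dark, right) and the mean of C at 0. The COL3A1 values of 5 of the 6 rats of 14D lie between -3.88 and -1.80, below all C animals, while the groups overlap in every gene.

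The inhibitors of metalloproteinases had a lower mean in 14D for TIMP-1 and a higher one for TIMP-2 relative to RPLP0, and neither passed. With the Ct alone, without RPLP0, both means were lower in 14D, with log2 differences of -1.01 and -0.33. TIMP-1, a secreted inhibitor of many metalloproteinases, had a log2 expression of -2.45 at the lowest, -1.22 at the median and -0.21 at the highest in 14D, against -0.20, -0.38, -0.19 and 0.76 in C replicates 2 to 5. All 6 rats of 14D were below the C mean, 5 of them were below every C animal, and replicate 5 lay within the range of C. The mean was 2.36-fold lower in 14D (log2 difference -1.24, SE 1.21, 95% interval -3.75 to 1.28, n = 6 against 4). The two-sided exact permutation p was 0.0238, and limma gave an unadjusted p of 0.320 and an adjusted p of 0.593. The limma model takes 1 spread over all 4 groups. The SD of TIMP-1 was 0.79 in 14D and 0.52 in C, while it was 2.99 on day 3 and 2.67 on day 28. Of the 3D rats, replicate 5 stood at 5.47 and the others at 0.17 or lower. Of the 28D rats, replicate 3 stood at 4.33 and the others at 0.22 or lower. With only 14D and C in the model the unadjusted limma p was 0.0148 and the adjusted p 0.162.

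TIMP-2, an inhibitor that also takes part in the activation of MMP-2, had a log2 expression of -0.54 at the lowest, 0.57 at the median and 0.65 at the highest in 14D, against 0.34, -0.21, -0.13 and 0.01 in C replicates 1, 2, 3 and 5. In 4 of the 6 rats of 14D it was above every C animal, and in replicate 3 it was below every C animal. The log2 difference was 0.36 (95% interval -0.49 to 1.22).

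The proteases had higher means in 14D relative to RPLP0, and neither passed. MMP-2, a gelatinase that cuts denatured and basement membrane collagens, ran from -0.20 through a median of 0.48 to 1.01 in 14D, against -0.46, 0.08, -0.23 and 0.61 in C replicates 1, 2, 3 and 5. The groups overlapped in 5 of the 6 rats of 14D, and the log2 difference was 0.42 (95% interval -0.29 to 1.12), the narrowest interval of the panel. It was 0.26 without C replicate 1 and -0.28 with the Ct alone. ADAMTS-4, an aggrecanase that cuts large proteoglycans, ran from -1.26 through 1.01 to 2.41 in 14D, against 0.77, -0.34, 0.00 and -0.42 in C replicates 2 to 5. Replicate 6 of 14D was below every C animal and 4 other rats of 14D were above every C animal, so that the log2 difference of 0.91 had a 95% interval of -0.71 to 2.53. Without replicate 6 the log2 difference was 1.35.

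Within the animals, the ratios of MMP-2 and of TIMP-2 to TIMP-1 separated 14D from the 3 C animals with both genes measured. The log2 ratio of MMP-2 to TIMP-1 ran from 0.58 through a median of 1.55 to 2.56 in 14D, against 0.19, 0.05 and -0.24 in C replicates 2, 3 and 5. All 6 rats of 14D lay above all 3 of C, and the mean ratio was 2.95 times as high in 14D (log2 difference 1.56, SE 0.55). The log2 ratio of TIMP-2 to TIMP-1 ran from 0.96 through 1.42 to 3.27 in 14D, against 0.16, 0.42 and -0.58 in the same C animals. Here too all 6 rats of 14D lay above the 3 of C, and the mean ratio was 3.43 times as high (log2 difference 1.78, SE 0.57). For each of these ratios the two-sided exact permutation p was 0.0238, and 0.0952 after adjustment over the 8 ratios, so that neither passed. Here too 6 animals against 3 allow no exact p below 0.0119 before adjustment. Both ratios share the TIMP-1 values, so they are not separate results. The ratio of MMP-2 to TIMP-2 showed no such gap, with a log2 difference of 0.05 (SE 0.38, n = 6 against 4, two-sided exact permutation p = 0.890).

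**Figure D3:**
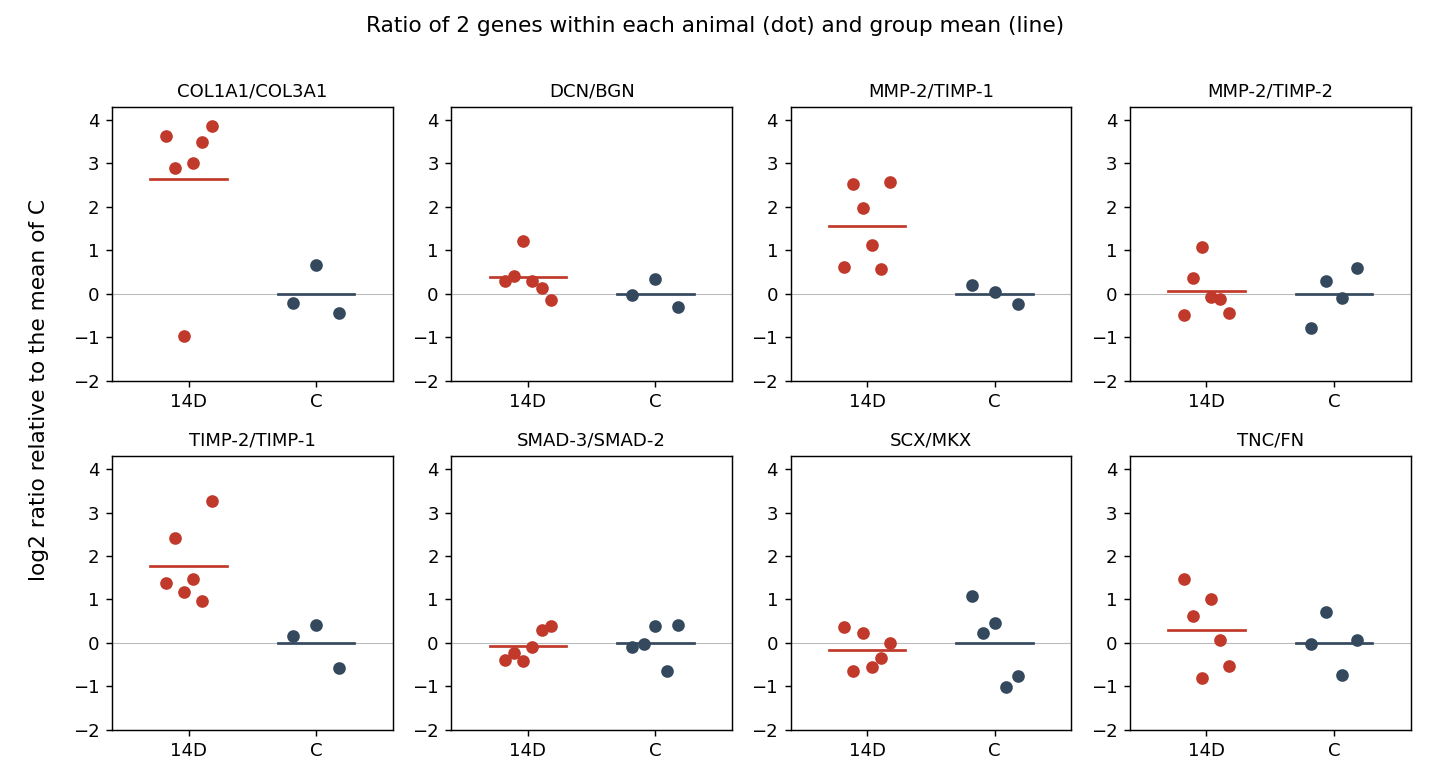
Log2 ratio of 2 genes within each animal (dot), relative to the mean of C, with the group mean (line), 14D at the left and C at the right of each panel. The ratios of MMP-2 and of TIMP-2 to TIMP-1 in 14D start at 0.58 and 0.96, above the highest C animals at 0.19 and 0.42.

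The small leucine rich proteoglycans varied widely within 14D. Decorin (DCN), which binds to collagen fibrils and limits their width, had a log2 expression of -0.67 at the lowest, 0.09 at the median and 2.0 at the highest in 14D, against -0.62, -0.12, 0.31 and 0.43 in C replicates 1, 2, 3 and 5. Replicates 2 and 3 of 14D, at 2.0 and 1.42, were above every C animal, replicate 1 was just below all of them, and the median of 14D was inside the range of C. The log2 difference was 0.44 (95% interval -0.80 to 1.67), and without replicate 2 it was 0.12.

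Biglycan (BGN), a close relative of decorin, ran from -1.08 through -0.17 to 1.48 in 14D, against -0.99, -0.19, -0.14, 0.69 and 0.63 in C replicates 1 to 5. Apart from the lowest and the highest rat of 14D, replicates 1 and 2, the values lay inside the range of C, and the log2 difference was -0.05 (95% interval -1.09 to 1.00). Fibromodulin (FMOD), which takes part in early fibril assembly, ran from -1.20 through -0.57 to 1.26 in 14D, against -2.12, 0.31, -0.42, 1.59 and 0.63 in C. All of its 14D values lay within the range of C, whose SD of 1.39 was the largest in that group, and the log2 difference was -0.39 (95% interval -1.92 to 1.15). It was 0.01 without C replicate 4. The log2 ratio of DCN to BGN within an animal differed by 0.37 (SE 0.30, n = 6 against 3, two-sided exact permutation p = 0.286).

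Relative to RPLP0 the matricellular and adhesion genes gave 2 higher means and 1 mean near that of C. Their median log2 difference was 0.67 against 0.09 over all 22 genes, with 0 genes called. Fibronectin (FN), a glycoprotein that links cells to the matrix, ran from -0.17 through a median of 0.39 to 1.89 in 14D, against -0.29, -0.31, 0.29 and 0.32 in C replicates 1, 2, 3 and 5. In 5 of the 6 rats of 14D it was above every C animal, and replicate 1 overlapped with C. The log2 difference was 0.67 (95% interval -0.32 to 1.65). It was 0.42 without 14D replicate 2 and -0.03 with the Ct alone.

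Tenascin C (TNC), a matrix glycoprotein induced by mechanical load and injury, ran from -0.28 through 0.75 to 2.39 in 14D, against -0.45, 0.27, -0.57, 0.48 and 0.27 in C replicates 1 to 5. Replicates 1, 2 and 4 of 14D were above every C animal and the other 3 overlapped with C, with a log2 difference of 0.84 (95% interval -0.77 to 2.46). Without 14D replicate 2 it was 0.53. Syndecan-4 (SDC-4), a cell surface proteoglycan that acts with integrins, ran from -0.68 through -0.03 to 0.82 in 14D, against -0.90, -0.28, -0.47, 0.68 and 0.97 in C. Its 14D values all lay inside the range of C, and the log2 difference was -0.05 (95% interval -1.01 to 0.90). The log2 ratio of TNC to FN differed by 0.30 (SE 0.51, n = 6 against 4, two-sided exact permutation p = 0.567), and by 0.05 without C replicate 3 or 0.53 without C replicate 2.

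Of the growth factors, VEGF had a lower mean in 14D, TGF-β1 and IGF-1a had higher means, and none passed. VEGF, which drives the formation of blood vessels, had a log2 expression of -2.71 at the lowest, -1.33 at the median and 0.70 at the highest in 14D, against -0.28, 0.13, 0.02 and 0.14 in C replicates 2 to 5. Replicates 1, 4, 5 and 6 of 14D were below every C animal, replicate 3 was inside their range, and replicate 2 was above it. The mean was 2.08-fold lower in 14D, with a log2 difference of -1.05 (95% interval -2.36 to 0.25), and without replicates 2 or 1 it was -1.40 or -0.72. The SD was 1.18 in 14D and 0.19 in C.

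TGF-β1, which stimulates collagen synthesis by fibroblasts, ran from -0.30 through 0.20 to 0.71 in 14D, against -0.05, 0.02, -0.03 and 0.06 in C replicates 1, 2, 3 and 5. The 4 C animals were nearly equal, so that 4 rats of 14D lay above and 2 below all of them, and the log2 difference was 0.18 (95% interval -0.80 to 1.15). It was 0.07 without 14D replicate 2 and -0.52 with the Ct alone. IGF-1 is a growth factor that promotes matrix synthesis, and the files pair the assay named IGF-1a with the gene symbol Igf1 only, so its values are given for the gene and not for a splice form. It ran from -0.99 through 0.17 to 2.53 in 14D, against -0.64, 0.40, -0.21 and 0.45 in the same C animals. Replicates 2 and 3 of 14D, at 2.53 and 2.30, were above every C animal, replicate 1 was below all of them, and the median was inside the range of C. The log2 difference was 0.61 (95% interval -0.73 to 1.95), and it was 0.23 without replicate 2 and 0.28 without replicate 3.

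SMAD-2 and SMAD-3, which carry TGF-β signals to the nucleus, had means close to C. SMAD-2 ran from -0.90 through 0.17 to 0.60 in 14D, against -1.02, 0.10, 0.20, 0.03 and 0.70 in C replicates 1 to 5, and every 14D value lay inside the range of C. Its log2 difference was 0.07 (95% interval -0.85 to 1.00). SMAD-3 ran from -1.32 through 0.03 to 0.91 in 14D, against -1.12, 0.07, 0.57, -0.63 and 1.10 in C, with only replicate 3 of 14D outside the range of C. Its log2 difference was 0.00 (95% interval -1.14 to 1.13), and that of the log2 ratio of SMAD-3 to SMAD-2 was -0.08 (SE 0.24, two-sided exact permutation p = 0.745, n = 6 against 5).

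The tendon lineage and differentiation genes had 2 higher and 2 lower means, with a median log2 difference of -0.02 against 0.09 over all 22 genes and 0 genes called. SCX, a transcription factor of tendon progenitors that activates collagen and tenomodulin genes, ran from -0.17 through 0.03 to 0.57 in 14D, against 0.43, -0.08, 0.21, -0.44 and -0.11 in C replicates 1 to 5. Its SD of 0.30 was the smallest of the 14D group, only replicate 6 lay above the range of C, and the log2 difference was 0.11 (95% interval -0.75 to 0.96). MKX, a homeobox factor that maintains tendon cells, ran from -0.39 through 0.49 to 0.67 in 14D, against -0.65, -0.31, -0.25, 0.57 and 0.65 in C. Only replicate 5 of 14D was above the range of C, by a small margin, and the log2 difference was 0.27 (95% interval -0.71 to 1.25), or 0.11 without C replicate 1 and 0.43 without C replicate 5. The log2 ratio of SCX to MKX differed by -0.16 (SE 0.40, two-sided exact permutation p = 0.688, n = 6 against 5).

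The study names 1 assay ERG1, and the deposited symbol beside it is Egr1, the gene of a transcription factor that responds to mechanical load. It ran from -0.99 through -0.55 to 0.26 in 14D, against 0.62, 0.04, -1.56, 1.51 and -0.61 in C replicates 1 to 5. Here the C animals were the more variable, with an SD of 0.48 in 14D and 1.17 in C, and all 14D values lay inside their range. The log2 difference of -0.42 (95% interval -1.82 to 0.99) was -0.04 without C replicate 4. TNMD, a marker of differentiated tendon cells, ran from -0.91 through -0.22 to 1.02 in 14D, against -0.87, -0.22, 0.24, 0.78 and 0.08 in C. Only replicates 2 and 6 of 14D were outside the range of C, on opposite sides, and the log2 difference was -0.15 (95% interval -1.07 to 0.77).

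IL-6, the only cytokine of the panel, had most of the wells with a Ct above 35. Its log2 expression ran from -1.11 through -0.01 to 0.58 in 14D, against -0.65, 0.98, -1.15 and 0.82 in C replicates 1, 2, 3 and 5. All 14D values lay inside the range of C, and the log2 difference was -0.14 (95% interval -1.22 to 0.95).

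The rats of 14D differed among themselves more than the C rats in 13 of the 22 genes, and their SD was more than 2 times that of C in 8, with a median SD of 0.75 in 14D and 0.56 in C. In COL3A1, DCN, ADAMTS-4, FN, TGF-β1, VEGF and IGF-1a, all among these 8, a C value had been left out. Of the 10 genes with all 5 C animals, only BGN, TNC and TNMD had the larger SD in 14D. No test of the spread was made. The same rats recurred at the ends of the range. Replicate 2 was the highest 14D rat in 16 genes, with a mean log2 expression of 0.85 over the 22 genes, but it was among the lower rats in TIMP-1, at -1.60. Replicate 1 was the lowest in 10 genes, with a mean of -0.57. Replicate 3 was the lowest in 6 genes and the highest in COL3A1, and its RPLP0 Ct was the latest of the group, at 29.3. Since all genes of a 14D rat share its RPLP0 Ct, values of different genes in 1 rat are not independent. In C, replicate 1 was the lowest in 12 of its 18 measured genes, and replicate 5 the highest in 13 of 22.

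**Figure D4:**
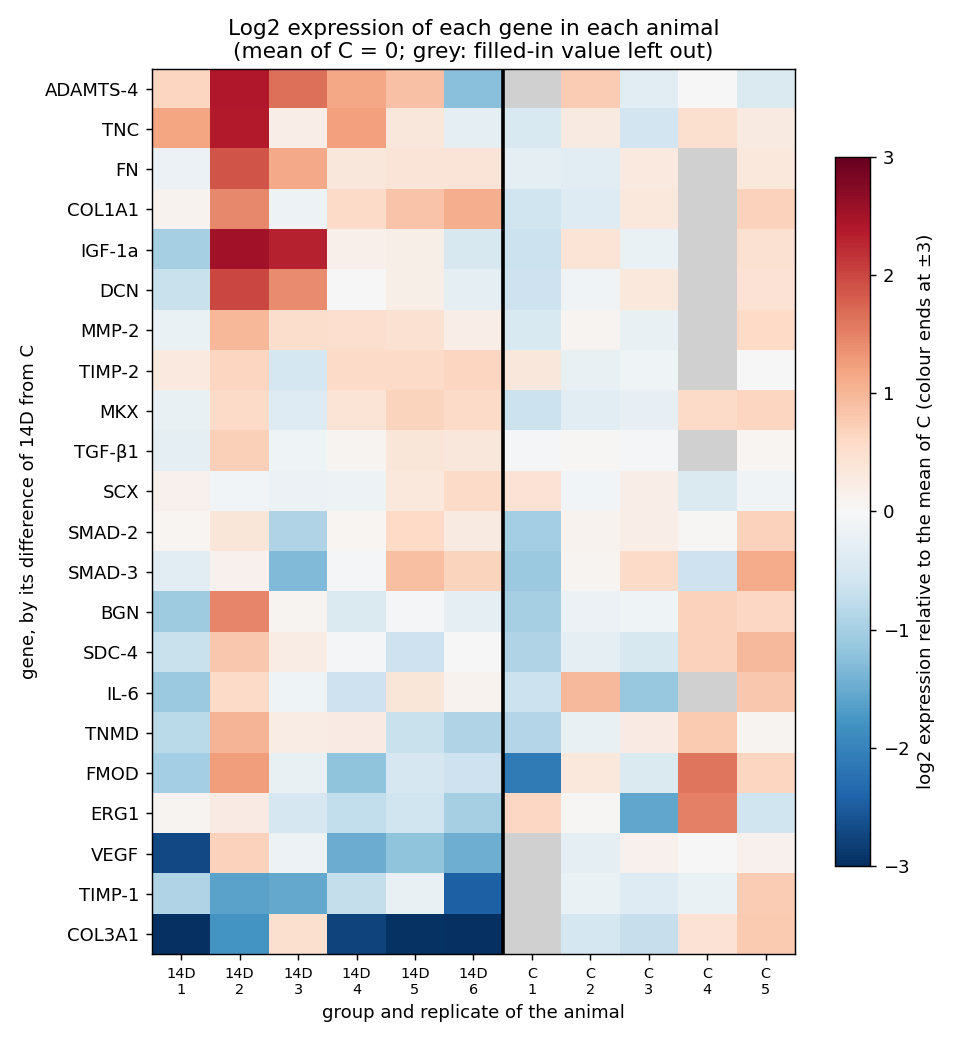
Log2 expression relative to the mean of C for each gene (rows, ordered by the difference of 14D from C) in each animal (columns, 14D at the left, C at the right), with values left out in grey and the colour scale ending at 3 to either side of 0. The column of 14D replicate 2 is the reddest, with a mean of 0.85, and the COL3A1 row is blue in all 14D rats except replicate 3.

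Set against the other times after injury, 14D differed from 3D in 6 of the 22 genes (27.3% called by limma) and from 28D in 0 (0% called). Against 28D, TNMD and COL1A1 had an unadjusted p under 0.05 in both limma and the exact test. SCX, 0.74 lower in 14D than in 28D, had it in the exact test only (two-sided exact permutation p = 0.0346, unadjusted limma p = 0.0712). The 3D group held 13 of the 24 wells of the series with a Ct above 35, and 10 of its values were left out as filled in. Its replicate 2 stood apart, with an RPLP0 Ct of 32.3 while the other 3D rats lay between 26.1 and 28.5, and it was the lowest 3D rat in COL1A1, DCN, TIMP-2, MKX and MMP-2. COL1A1 was 3.39 higher on the log2 scale in 14D than in 3D (SE 0.55, adjusted p = 5.30e-04 from limma). DCN was 1.91 higher (adjusted p = 0.0403 from limma), FN 1.77 (adjusted p = 0.0226 from limma) and TIMP-2 1.56 (adjusted p = 0.0145 from limma). MKX was 1.50 higher (adjusted p = 0.0403 from limma) and MMP-2 1.18 (adjusted p = 0.0291 from limma). Without 3D replicate 2 only 3 of the 6 passed, namely COL1A1 at 3.09, FN at 1.93 and TIMP-2 at 1.16, while DCN was at 1.58 (adjusted p = 0.166 from limma), MMP-2 at 1.01 (adjusted p = 0.0693 from limma) and MKX at 0.95 (adjusted p = 0.120 from limma). COL1A1 and TIMP-2 passed whichever of the 22 rats of the series was left out, FN in 20 of these fits, MMP-2 in 15 and DCN and MKX in 10 each. In 3D replicate 5 the Ct minus ΔCt gave an RPLP0 Ct of 28.5 in 12 of 21 genes and another value in the rest. COL1A1, DCN, MMP-2, TIMP-2 and FN were among the rest. With 1 RPLP0 Ct for all genes of a rat, only COL1A1 passed, at 3.06 (adjusted p = 0.00425 from limma). Without 28D replicate 4, COL1A1 was 1.86 higher in 14D than in 28D and passed (adjusted p = 0.00635 from limma).

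None of the 6 genes that differed from 3D passed between 14D and C, where their log2 differences lay between 0.27 and 0.67.

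COL3A1 was not among these 6 genes. With C at 0.00, its mean log2 expression was -1.83 on day 3, -2.34 on day 14 and -1.05 on day 28, and it passed in neither comparison of 14D with another time. The log2 difference was -0.51 from 3D (95% interval -2.32 to 1.30) and -1.29 from 28D (95% interval -2.91 to 0.33). VEGF, with means of -1.15, -1.05 and -0.93 on days 3, 14 and 28, differed by 0.10 from 3D (95% interval -1.13 to 1.32) and by -0.12 from 28D (95% interval -1.29 to 1.05). TIMP-1 had means of 0.45, -1.24 and -0.50 on the same days, with the wide spread of 3D and 28D given above. TNMD, at -0.15 in 14D, was 1.01 lower than in 28D (95% interval -1.89 to -0.13, adjusted p = 0.155 from limma).

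A further deposited table gives relative expression. It should equal 2 to the power of the log2 expression taken relative to the mean of all C values, filled-in ones included. Of the 132 values of 14D in that table, 115 were within 0.1 on the log2 scale of the value that follows from ΔCt, 15 were not and 2 were blank. In 11 of the 15 the table held the mean of other 14D animals. These lay in 7 genes and in replicates 2 and 3 only. For replicate 2 the table held the mean of replicates 3, 4 and 5 in BGN, DCN, MMP-2, FN and IL-6, and for replicate 3 that of replicates 1, 4, 5 and 6 in COL1A1, BGN, DCN, MMP-2, TIMP-2 and FN. The other 4 were in TNC, where replicates 1 to 4 held the values of replicates 3 to 6 and replicates 5 and 6 were blank.

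These replaced values narrowed the spread of 14D. The SD of DCN in 14D was 0.30 with that table and 1.04 with the ΔCt values, that of FN 0.22 against 0.73, and that of TIMP-2 0.12 against 0.46. The log2 difference of DCN from C was -0.16 in place of 0.44, that of FN 0.26 in place of 0.67, that of TNC 0.38 in place of 0.84 and that of BGN -0.42 in place of -0.05. COL3A1 kept its 14D values in that table, and its left-out C value was filled in. Its log2 difference of -2.26 passed (adjusted p = 0.0427 from limma), the only gene that did so there. With all deposited ΔCt values COL3A1 had the same log2 difference of -2.26 and did not pass (adjusted p = 0.0584 from limma).

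**Figure D5:**
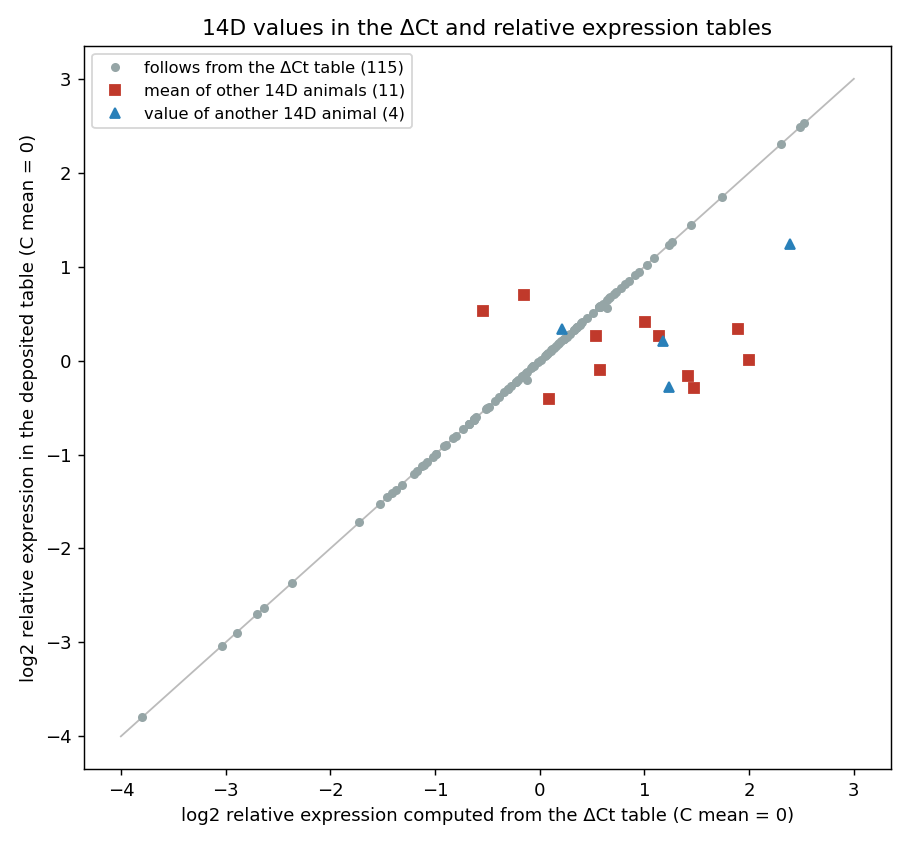
Log2 relative expression of the 14D animals in the deposited table of relative expression (vertical) against that computed from ΔCt (horizontal), both with the mean of all C values at 0, with a line of equality. Grey points (115) follow from ΔCt, red squares (11) hold the mean of other 14D animals, and blue triangles (4) hold the TNC value of another animal.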

How the data were processed

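RNA of whole CT was reverse transcribed (1 µg) and measured with TaqMan assays in 2 technical replicates. The authors deposited the Ct of each gene and animal, with no normalization. They also deposited ΔCt, the Ct minus that of RPLP0, a log2 scale of reversed sign, and relative expression, a ratio to the mean of C. All 22 symbols matched a RefSeq table of rat genes (GRCr8), used for names only. Groups came from the sample labels, which give no batches. Blanks and values equal within 1e-06 to the mean of the group's other animals, in Ct or ΔCt, were dropped. The RPLP0 Ct was the most frequent Ct minus ΔCt of an animal.

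Minus ΔCt was fitted with limma 3.58.1 in R 4.3.3 with 1 mean for each of 4 groups, and p-values were adjusted by the Benjamini-Hochberg method over 132 tests (22 genes, 6 pairs of groups). Exact tests permuted the animals of the pair. Ratios were Ct differences within an animal, adjusted over 8. All 22 genes are named, with full statistics where an unadjusted or exact p was under 0.05 or the groups did not overlap. Members, lists and the rule for dropped values were chosen with earlier results of these data known. The Ct of DCN equals that of BGN in C replicate 1 and was not used alone. The alternatives were other references, tables, filters, scales, models and adjustments, a replicate block, and each animal left out. The code was tested on simulated data. qRT-PCR has no counting depth, so the number of animals limits the precision. The assays of CTGF, ACTB and GAPDH were not used here.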

Additional observations from a re-analysis of the deposited data

Results flagged for a closer look

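Of 46 groups of values checked (22 genes and RPLP0 in 14D and in C), 4 held an animal far from the others, and chance gives about 1 in 20. TIMP-2 in 14D replicate 3 was -0.54 on the log2 scale, while the other 14D rats lay between 0.29 and 0.65. SMAD-2 in the same rat was -0.90, while the others lay between 0.05 and 0.60. TIMP-1 in C replicate 5 was 0.76, while the other C rats lay between -0.38 and -0.19. The RPLP0 Ct of C replicate 4 was 30.6, while the other C rats lay between 26.1 and 26.9.

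In 6 genes 14D differed from 3D in the direct test between these times, with log2 differences of 3.39 in COL1A1, 1.91 in DCN, 1.77 in FN, 1.56 in TIMP-2, 1.50 in MKX and 1.18 in MMP-2, all higher in 14D. Without 3D replicate 2, whose RPLP0 Ct was 32.3, COL1A1, FN and TIMP-2 passed, and DCN, MKX and MMP-2 did not.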

How the results depend on the processing

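The count of genes past the threshold between 14D and C was 0, and it became 1, COL3A1, with the deposited table of relative expression (adjusted p = 0.0427) and without 14D replicate 3 (adjusted p = 0.0274); the cause was not tested. Over the animals left out in turn it ranged from 0 to 1. It stayed 0 under the other alternatives, where the smallest adjusted limma p ran from 0.0584 with all deposited ΔCt values to 0.395 with the Ct alone. It was also 0 with Bonferroni-adjusted least squares (smallest p 0.156) or Dunn's procedure (0.195). Leaving out the values replaced in the relative expression table, an alternative chosen after seeing the data, also gave 0 (smallest adjusted p 0.102). With all deposited values, filled-in ones included, the ratios passed the threshold for COL1A1/COL3A1 (2.92, adjusted exact p = 0.0462), MMP-2/TIMP-1 (1.57, 0.0260) and TIMP-2/TIMP-1 (1.52, 0.0260). In each of these ratios C replicates 1 and 4 had a gene filled in from the other C animals. Their ratios were thus not measured within a rat, yet they counted as animals in the test.

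With the Ct alone the log2 difference turned in COL1A1 (-0.0413), BGN (0.10), DCN (-0.64, with C replicate 1 also left out), MMP-2 (-0.28), TIMP-2 (-0.33), FN (-0.0290), SDC-4 (0.10), TGF-β1 (-0.52), IGF-1a (-0.0813) and SMAD-3 (0.14), and 8 genes were above 0 and 14 below, against 12 and 10 relative to RPLP0. The median over genes was -0.06 with the Ct alone and 0.09 relative to RPLP0. In COL1A1, MMP-2, TIMP-2, FN, TGF-β1 and IGF-1a the value of C replicate 4 had been left out. Over the other C animals the RPLP0 Ct was 0.694 cycles later in 14D. The log2 difference of each of these genes relative to RPLP0 was smaller than that. With the targets' mean Ct as the reference BGN (0.0235), SDC-4 (0.0187) and SMAD-3 (0.0660) turned, with 15 above and 7 below. On linear values BGN turned (0.0517), with the relative expression table DCN (-0.16) and FMOD (0.00960), and with its replaced values left out DCN (-0.20). For FMOD that table kept the 14D values, while C replicate 4 held the value of C replicate 5 and C replicate 5 was blank.

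Over the animals left out in turn, the log2 difference ranged from -2.91 to -2.04 for COL3A1, -1.44 to -0.98 for TIMP-1 and -1.40 to -0.72 for VEGF. It kept its sign but moved in COL1A1 (0.45 to 0.88), DCN (0.12 to 0.66), MMP-2 (0.26 to 0.62), ADAMTS-4 (0.61 to 1.35), TIMP-2 (0.29 to 0.55), FN (0.42 to 0.83), TNC (0.53 to 1.07), TGF-β1 (0.07 to 0.27), IGF-1a (0.23 to 0.93), MKX (0.11 to 0.43) and ERG1 (-0.81 to -0.04), and in the ratios DCN/BGN (0.20 to 0.54) and TNC/FN (0.05 to 0.53). It changed sign in at least 1 such fit for BGN (-0.35 to 0.16), FMOD (-0.92 to 0.00960), SDC-4 (-0.28 to 0.19), SMAD-2 (-0.18 to 0.27), SMAD-3 (-0.28 to 0.27), SCX (-0.00387 to 0.21), TNMD (-0.38 to 0.0464) and IL-6 (-0.52 to 0.19). So did the ratios MMP-2/TIMP-2 (-0.21 to 0.25), SMAD-3/SMAD-2 (-0.24 to 0.0247) and SCX/MKX (-0.42 to 0.11), and the RPLP0 Ct (-0.577 to 0.694).

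The replicate numbers gave no clear pairing of the rats: over 5 numbers the correlation of the deviations ran from -0.367 to 0.434, and 3 were above 0.1. For 2 numbers the C rat of the same number was the best match, and so few numbers cannot exclude a pairing. With the replicate number as a block 0 genes passed (smallest adjusted p 0.240), COL3A1 was at -2.17, and no call between 14D and C changed. Between 14D and 3D the block left DCN below the threshold (1.93, adjusted p = 0.0831).

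The comparisons of 14D with 3D and 28D were run under the same settings after seeing the data. The 6 genes that passed against 3D became 2 with the targets' mean Ct as the reference, 2 on linear values, 1 with the Ct alone, 1 with 1 RPLP0 Ct per animal and 3 without the values replaced in the relative expression table. Over the animals left out in turn the count ran from 2 to 6, and it was 3 or fewer without 3D replicates 1, 2 or 5, 14D replicates 2, 4 or 5, or 28D replicate 5. Against 28D the 0 genes became 1 (COL1A1) with the targets' mean Ct as the reference and 2 (COL1A1 and TNMD) with the relative expression table, and ran from 0 to 1 over the animals left out. The cause was not tested.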
